A study of Mus musculus with 34 samples.

Results

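The interaction between goitrogen exposure and thyroid hormone injection in juvenile mouse liver was measured on all 34 arrays of the series. It is the response to injection in exposed pups (hypo+ minus hypo) minus the response in unexposed pups (hyper minus control), with sex as a covariate, and it was estimated for each of 41174 probes. The members are thus the 34 of 34 pups, 1 array each, and the genes described below are those whose 2 responses differed. All pups were C57BL/6 mice at postnatal day (PND) 15. The 8 control pups received saline, and their dams were not exposed. The 10 hyper pups, likewise unexposed, received 50 μg T4 and 5 μg T3 per 100 g. The 9 hypo pups received saline and the 7 hypo+ pups received 20 μg T4 and 2 μg T3 per 100 g, both after 3 days in which the water of their dams held methimazole (0.05%) and sodium perchlorate (1%). Injections into the peritoneum preceded collection by 4 h. Exposed pups received the lower dose, so that exposure and dose cannot be told apart in any value of the interaction. Only those injected exposed pups whose serum T4 lay near or slightly above that of controls were kept as hypo+ in the study, and this choice limits the group as a model of replacement.

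Methimazole blocks thyroid peroxidase and perchlorate blocks the uptake of iodide, so that together they deplete the thyroid hormones T4 and T3. T3 binds nuclear receptors that sit on DNA as partners of the retinoid X receptor, and binding turns many hepatic target genes on and some off. In liver the best known targets serve hormone metabolism (Dio1), lipogenesis (Thrsp, Me1) and mitochondrial metabolism.

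Each array set the liver RNA of 1 pup (Cy5) against a universal mouse reference RNA (Cy3), and values are log2 ratios after loess normalization within the array. Between 60.8% and 79.4% of the spots of an array lay well above background, and pups of a group correlated with each other at 0.967 to 0.98 (range of each array's median correlation, over probes). The 8 hepatocyte markers on the array had a mean log2 ratio between 4.29 and 5.88 in every pup. The 18 pancreatic acinar markers had a mean above 1 in 4 pups only, which were control pups 832 (4.57), 522 (4.21) and 831 (3.38) and hypo+ pup 543 (2.09). These arrays stand apart, and for the 9 named genes that lost their call without them the value without them is given beside the main one. Limma called none of the 18 for the interaction (16 at an unadjusted p below 0.05), although all were above 0 with a median of 1.61.

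The injection changed more probes in exposed than in unexposed pups, at the lower dose. In exposed pups 1472 probes were called (adjusted p below 0.05, limma with Benjamini-Hochberg adjustment over all probes), 748 higher (1.82% of all probes) and 724 lower (1.76%), or 3.58% in all. In unexposed pups 392 were called, 303 higher (0.736%) and 89 lower (0.216%), or 0.952%. The 2 responses share no array. The 245 probes called in both were 16.6% of the first and 62.5% of the second list, 244 of them moved the same way, and 175 of the 245 moved further in exposed pups. The SE of a response had a median of 0.058 in exposed and 0.055 in unexposed pups.

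The difference itself passed the test for 35 probes of 32 genes, which is 0.085% of the probes, and 3949 probes had an unadjusted p below 0.05. In 20 probes of 17 genes (0.0486% of all probes) the level rose more in exposed pups, and in 13 probes of 13 genes (0.0316%) it fell more. In the other 2 (0.00486%) the response was larger in unexposed pups. Of the 35, 33 were also called for the response in exposed pups and 12 for that in unexposed pups. The count rested on single arrays: it ranged from 10 without control pup 882 to 92 without hypo+ pup 546. It was 34 without the 4 arrays that carried acinar transcripts. Among the 22 named genes that were called, between 7 (without control pup 882) and 22 stayed called when 1 array was left out. Sned1, Dio1, Ppargc1b, DXBay18, Ly6c1 and Trim24 did so in all 34 such fits, but Plekha6 in 9, Spata2l in 10, Dmbt1 and Srrt in 11, Lzic in 13, Gbp8 in 15, Rad51ap1 in 17, Tmem260 in 19 and Sybu in 22, and the other 7 in 29 to 32. Median centring in place of loess left 0 probes called by limma (1610 at an unadjusted p below 0.05).

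**Figure D1:**
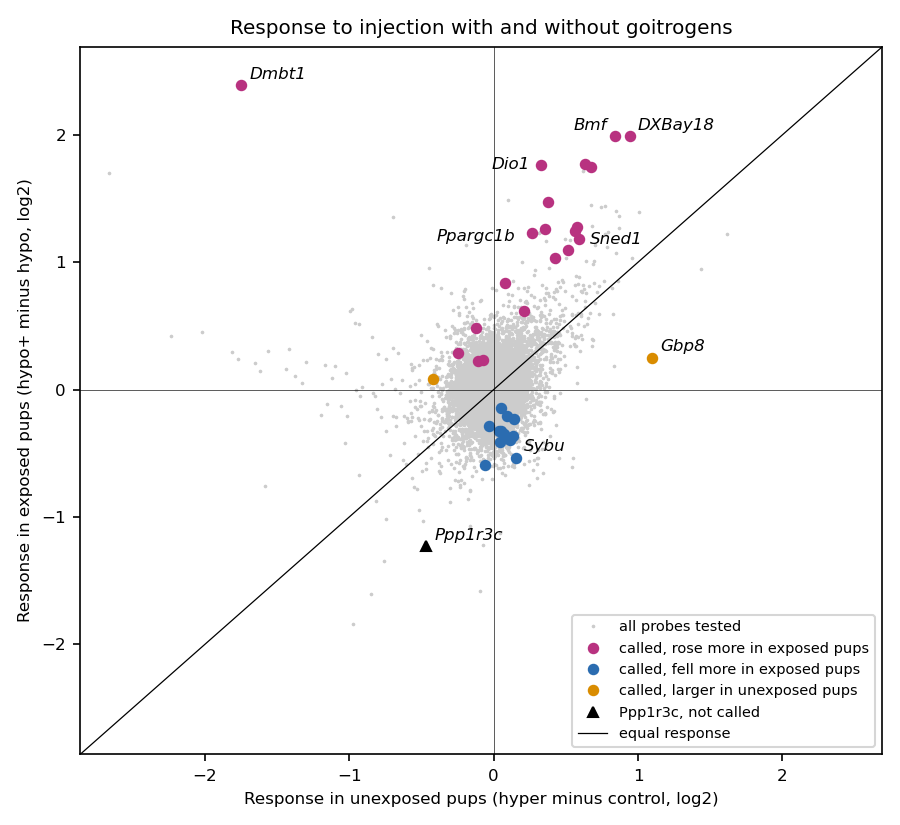
Response to injection in unexposed pups (x axis, hyper minus control, log2) against exposed pups (y axis, hypo+ minus hypo, log2), 1 point per probe, with the 35 called probes coloured. Most of the 20 probes that rose more in exposed pups lie well above the line of equal response, while the 13 that fell more lie below 0 on the y axis and near 0 on the x axis.

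Most genes that rose more in exposed pups had their lowest level in hypo pups. In 18 of the 20 probes the hypo mean was the lowest of the 4 groups, a description only, since the contrast itself contains the hypo pups. Dio1 encodes the type 1 deiodinase, which converts T4 to T3 and clears reverse T3. Its log2 ratio in hypo pups ran from 3.47 through a median of 4.48 to 5.07, and in hypo+ pups from 5.78 through 6.08 to 6.63. In control pups it ran from 5.60 through 6.04 to 6.42, and in hyper pups from 5.93 through 6.28 to 7.14. The hypo range lay apart from those of control and hypo+, whereas control, hyper and hypo+ overlapped. The injection raised Dio1 by 1.77 (SE 0.18) in exposed pups, or 3.40-fold. In unexposed pups the value was 0.33 (SE 0.17, adjusted p = 0.719). The interaction was 1.44 (SE 0.25, adjusted p = 0.0115). Without the 4 arrays with acinar transcripts it was 1.30 with an adjusted p of 0.0571.

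Bmf encodes a BH3-only protein that promotes apoptosis. Its log2 ratio ran from -0.90 through -0.41 to 0.31 in hypo and from 1.11 through 1.39 to 2.13 in hypo+ pups. The unexposed groups ran from 0.27 through 0.88 to 1.26 in control and from 0.87 through 1.85 to 2.14 in hyper pups. Hypo and hypo+ did not overlap, and control and hyper did. Bmf rose by 1.99 (SE 0.16) in exposed and by 0.84 (SE 0.15) in unexposed pups, both called, with an interaction of 1.15 (SE 0.23, adjusted p = 0.0276). Another pair of Bmf probes, dimmer than the first, gave interactions of 0.20 and 0.03 that were not called. Averaging the 3 probes gave 0.46.

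**Figure D2:**
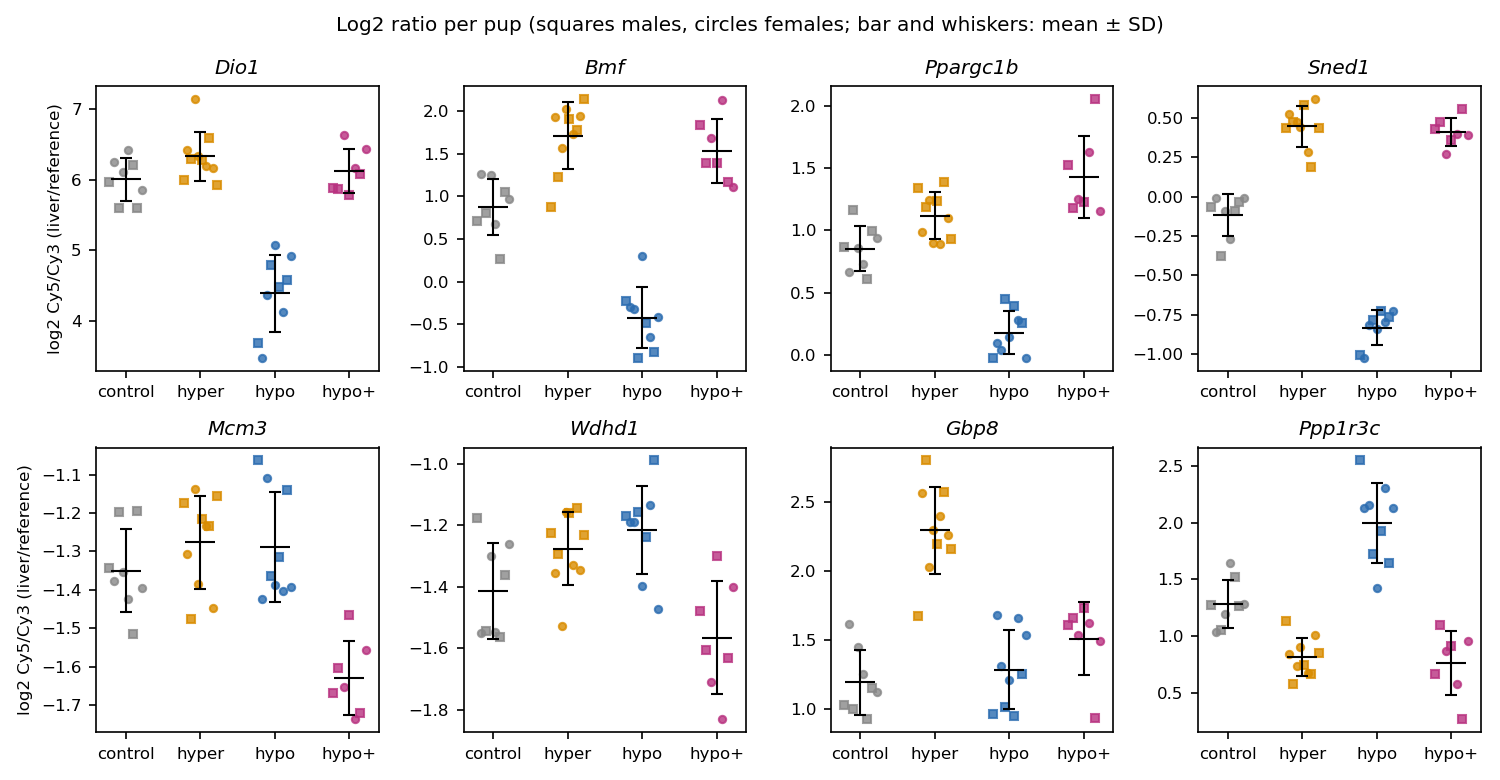
Log2 ratio of liver to reference RNA (y axis) in every pup of the 4 groups (x axis) for 8 genes. Squares are males, circles are females, and the bar with whiskers is the mean ± SD. In the upper row hypo pups sit lowest and hypo+ pups reach the level of hyper pups, while for Mcm3 the hypo+ pups sit lowest.

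Sned1 and Ppargc1b had the smallest p-values. Sned1, which encodes an extracellular matrix protein, lay between -1.03 and -0.73 in hypo pups (median -0.80) and between 0.27 and 0.56 in hypo+ pups (median 0.40). It lay between -0.38 and -0.01 in control pups (median -0.08) and between 0.19 and 0.62 in hyper pups (median 0.46). Neither pair overlapped, and hyper and hypo+ pups ended at like levels, with a difference of -0.04 (SE 0.06). Sned1 rose by 1.24 in exposed and 0.56 in unexposed pups, with an interaction of 0.68 (SE 0.08, adjusted p = 7.87e-05). Its other probes gave 0.40 (adjusted p = 0.0534) and 0.15.

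Ppargc1b encodes PGC-1β, a coactivator of genes of mitochondrial metabolism. It lay between -0.02 and 0.46 in hypo pups (median 0.14), between 1.16 and 2.05 in hypo+ pups (median 1.25), between 0.61 and 1.16 in control pups (median 0.87) and between 0.89 and 1.39 in hyper pups (median 1.14). Only the exposed pair was free of overlap. The gene rose by 1.23 (SE 0.10) in exposed pups, against 0.27 (adjusted p = 0.29) in unexposed pups. All 3 of its probes were called, with interactions of 0.96, 0.91 and 1.10.

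DXBay18 rose by 1.99 in exposed and by 0.94 in unexposed pups, with an interaction of 1.05 (SE 0.16, adjusted p = 0.00313) and no overlap within either pair. Its second, dimmer probe gave 0.69 (adjusted p = 0.0615) and was not called. Gpcpd1, a glycerophosphodiester phosphodiesterase, rose by 1.77 and 0.63, with an interaction of 1.14 on 1 probe, 1.07 on a second called probe and 0.78 on another that was not called. Ly6c1, a surface antigen, rose by 1.27 and 0.58 (interaction 0.69, SE 0.12), and its level cannot be told apart from that of its near-identical neighbour Ly6c2. Another Ly6c1 probe, much dimmer, gave -0.08. Trim24, a coregulator of nuclear receptors, rose by 1.18 and 0.59 (interaction 0.59, SE 0.11). In Trim24, as in Sned1, Ly6c1 and DXBay18, both pairs of groups were free of overlap. Of all probes, 0.729% were so for hypo against hypo+ and 0.287% for control against hyper. The genes were picked by a contrast of these same groups, so that their lack of overlap is a description only. Rhpn2 rose by 0.84 in exposed pups against 0.08 (adjusted p = 0.991) in unexposed pups. The values of the unexposed response were 0.42 for 4633401B06Rik, which passed, and 0.21 for Plekha6, which did not, below 1.03 and 0.62 in exposed pups. The interaction of Plekha6 was 0.409, and its second, dimmer probe gave 0.207 (adjusted p = 0.385) and was not called.

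Binding of the hormone receptors is often described at repeats of the letters AGGTCA. The 300 bases around the RefSeq starts (250 before, 50 after, GRCm38.p6) were searched for this motif on both strands. Of the 17 genes that rose more, 8 had such windows, 12 in all, of which 3 (25.0%) held the motif, against 16.3% of all 32851 windows. Bmf had 3 windows and Trim24 had 2, and for each the window with the most matches was taken. The windows of Dio1, the first gene named, of Bmf and of the second start of Trim24 are shown with matches in capitals (5′ to 3′ on the gene's strand).
Dio1: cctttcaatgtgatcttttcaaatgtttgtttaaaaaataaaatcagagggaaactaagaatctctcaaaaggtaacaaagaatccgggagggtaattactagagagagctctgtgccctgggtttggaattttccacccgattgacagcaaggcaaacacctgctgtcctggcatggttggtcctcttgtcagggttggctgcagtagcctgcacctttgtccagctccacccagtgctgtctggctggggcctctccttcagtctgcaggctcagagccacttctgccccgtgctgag
Bmf: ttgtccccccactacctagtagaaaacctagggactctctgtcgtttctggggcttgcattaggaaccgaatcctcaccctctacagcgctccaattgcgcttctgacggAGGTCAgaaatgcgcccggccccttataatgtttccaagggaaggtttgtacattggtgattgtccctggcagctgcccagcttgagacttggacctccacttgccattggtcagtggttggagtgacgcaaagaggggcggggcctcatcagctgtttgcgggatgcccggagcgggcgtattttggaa
Trim24: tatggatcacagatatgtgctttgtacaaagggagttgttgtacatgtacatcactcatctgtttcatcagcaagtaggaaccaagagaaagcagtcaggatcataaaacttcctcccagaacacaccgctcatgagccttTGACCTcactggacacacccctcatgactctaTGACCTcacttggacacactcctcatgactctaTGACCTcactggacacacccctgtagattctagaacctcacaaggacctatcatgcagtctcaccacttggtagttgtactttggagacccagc
They lie at chr4:107307119-107307418 (minus strand), chr2:118549637-118549936 (minus strand) and chr6:37900237-37900536 (plus strand). The Dio1 window held 0 matches, the chosen window of Bmf 1, beginning 140 bases before the start, and the chosen window of Trim24 3. A match is a description of letters in this window and no measured binding.

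Dmbt1, a secreted scavenger receptor of epithelia, had the highest interaction of the named genes, 4.14 (SE 0.86, adjusted p = 0.0441). Its level differed widely between pups of a group. It lay between 0.03 and 5.17 in hypo+ pups (median 2.91) and between -0.07 and 3.55 in control pups (median 2.06). In hyper pups it lay between -0.14 and 0.29, and in hypo pups between -0.15 and 1.76. All groups overlapped. The 3 control pups with acinar means above 1 were among the highest controls, and the 4 highest hypo+ pups had acinar means of no more than 0.73. Hypo+ pups 546, 763 and 454, the highest in Dmbt1, had acinar means of 0.729, 0.705 and 0.677. In hypo+ pups 761, 363 and 601 these were 0.544 to 0.564, and hyper pup 861 had 0.706 with Dmbt1 at 0.065. Without the 4 arrays with acinar transcripts the interaction was 3.45 and was not called (adjusted p = 0.1). The part of acinar RNA in the Dmbt1 result was not tested further.

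**Figure D3:**
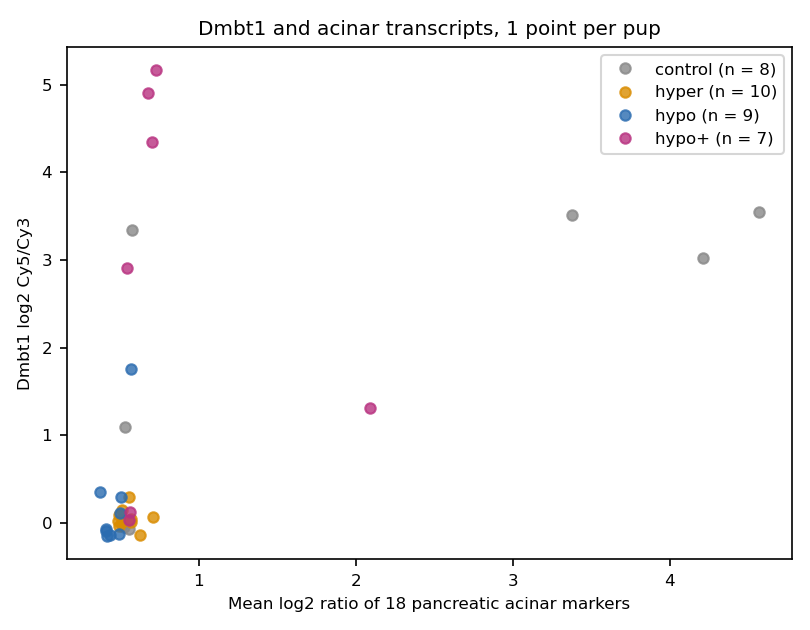
Dmbt1 log2 ratio (y axis) against the mean log2 ratio of 18 pancreatic acinar markers (x axis), 1 point per pup, coloured by group. Dmbt1 values above 2.9 occur in control pups with an acinar mean above 1 and below 1, and in hypo+ pups with a mean below 1. The hypo+ pup with a mean above 1 lies at 1.31, and the 10 hyper pups lie between -0.14 and 0.29.

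The 13 probes that fell more in exposed pups had values between -0.06 and 0.15 after injection of unexposed pups. Limma called 0 of them there (3 at an unadjusted p below 0.05), and 11 of the 13 had responses of opposite sign. Sybu and Usp6nl had their highest mean in hypo pups. Sybu encodes syntabulin, a kinesin linker, and ran from 1.91 through 2.13 to 2.40 in hypo and from 1.46 through 1.55 to 1.84 in hypo+ pups, without overlap. In control and hyper pups the medians were 1.70 and 1.83. It fell by 0.53 on the log2 scale in exposed pups, with an interaction of -0.69 (SE 0.14, adjusted p = 0.0318). Usp6nl, a GTPase-activating protein of Rab5, fell by 0.60 in exposed pups, with an interaction of -0.54 (adjusted p = 0.0215).

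Mcm3, Wdhd1 and Rad51ap1 had their lowest mean in hypo+ pups, as Sybu and Usp6nl did. Mcm3 encodes a subunit of the replicative helicase. It ran from -1.43 through -1.36 to -1.06 in hypo and from -1.74 through -1.65 to -1.47 in hypo+ pups, and from -1.52 through -1.37 to -1.20 in control and -1.48 through -1.23 to -1.14 in hyper pups. The hypo and hypo+ ranges did not overlap, while hypo, control and hyper did. The fall was 0.35 on the log2 scale in exposed pups and the interaction was -0.42 (SE 0.08, adjusted p = 0.0225), which was -0.40 with an adjusted p of 0.062 without the 4 arrays with acinar transcripts. Wdhd1, a replisome protein, gave -0.50, which was -0.39 (adjusted p = 0.0947) without these arrays, and its second probe, not called, gave -0.36. Rad51ap1, which serves homologous recombination, gave -0.37, with hypo+ pups apart from both hypo and hyper pups, and -0.39 (adjusted p = 0.0503) without these arrays. In injected pups the difference between exposed and unexposed animals was -0.36 (SE 0.06) for Mcm3 and -0.42 (SE 0.05) for Rad51ap1, where 3.66% of all probes were called. In saline pups it was 0.07 and -0.05, neither called, and 1.28% of all probes were. Tmem260, Lzic and Srrt, a protein of RNA metabolism, gave interactions of -0.38, -0.38 and -0.30. A second Tmem260 probe gave -0.35 (adjusted p = 0.152) and was not called. Without the arrays with acinar transcripts Lzic gave -0.36 (adjusted p = 0.0947) and Srrt -0.34 (adjusted p = 0.0582), and neither was called.

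Across a list of 28 genes of DNA replication and mitosis, 27 had an interaction below 0. This list, like the other gene lists here, was chosen with earlier results of these data known, so that its direction is no independent evidence. The median was -0.37 against 0 over all genes, and 22 of 28 (78.6%) had an unadjusted p below 0.05 against 9.22% of all genes, although only Mcm3 passed the adjusted test (0.0963% of all genes). In exposed pups 10 of the 28 fell and 1 rose, and in unexposed pups limma called 0 in either direction (0 at an unadjusted p below 0.05). Of all 33236 genes, 665 fell and 644 rose in exposed pups, and 82 fell and 253 rose in unexposed pups. The 10 included Mcm5 at -0.24, Mcm6 at -0.42, Mcm7 at -0.35, the replication clamp Pcna at -0.33, the ribonucleotide reductase subunit Rrm1 at -0.33, Top2a at -0.40, Tyms at -0.45 and the transcription factor E2f1 at -0.27. The gene that rose was E2f8, a repressor of the E2F family, at 1.00 (SE 0.22) on its brightest probe, against 0.20 (SE 0.21) in unexposed pups. A dimmer E2f8 probe, well above background on 100% of the arrays, gave -0.10 (adjusted p = 0.755) in exposed pups. Its interaction was -0.10, of the opposite sign to that of the brightest probe (0.80), and neither was called. The mitotic cyclin Ccnb1 had the largest fall of the list in exposed pups, -0.61 (SE 0.18, adjusted p = 0.06), and was not called.

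The mean log2 ratio over the 28 genes ran from -1.71 through -1.23 to -1.02 in hypo+ pups and from -1.18 through -1.05 to -0.87 in hypo pups. It ran from -1.11 through -0.94 to -0.77 in control and from -1.26 through -0.90 to -0.72 in hyper pups. The hypo+ pups thus lay lowest by their median, with overlap of every pair of groups. Fewer dividing cells and less of these transcripts per cell cannot be told apart in bulk RNA. The median interaction of the list was -0.45 without the 4 arrays with acinar transcripts, -0.36 in males alone and -0.39 in females alone. It was -0.21 with the slide as a fixed block. Over markers of other cell types, none was called for the interaction: the medians were 0.14 for 8 Kupffer cell genes, 0.23 for 8 endothelial genes, 0.12 for 7 stellate cell genes, 0.16 for 6 bile duct genes, 0.02 for 7 erythroid genes and -0.16 for 11 lymphoid and myeloid genes. Some markers had values as low as those of the replication genes, without passing the test. They included the neutrophil genes Ngp at -0.79 (SE 0.41), S100a8 at -0.745 (SE 0.40) and Mpo at -0.73 (SE 0.36). Another was the transferrin receptor Tfrc of the erythroid list at -0.51 (SE 0.14, adjusted p = 0.159). Other members of these lists did not go with them: S100a9 gave -0.002 (SE 0.25), Elane -0.09, Alas2 0.34 and Hba-a1 0.22. Of the 11 lymphoid and myeloid genes 2 lay above 0, as did 5 of the 7 erythroid genes. The part of these markers in the values of the replication genes was not tested.

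**Figure D4:**
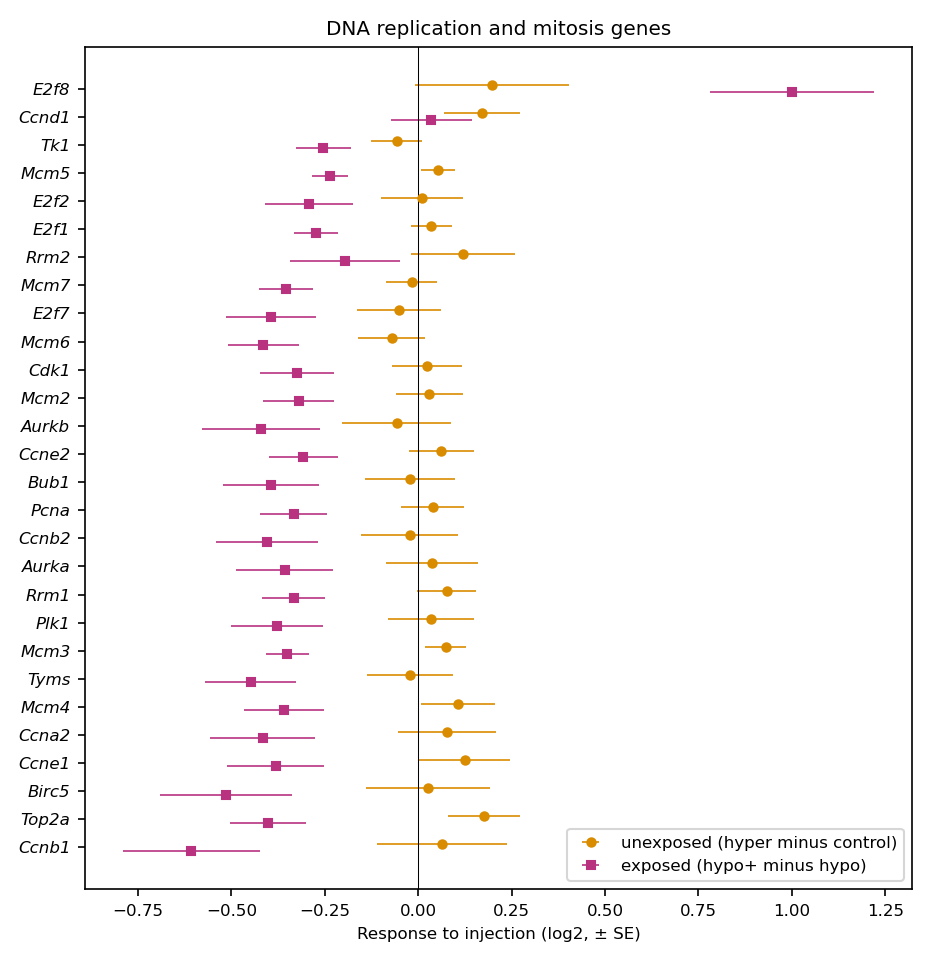
Response to injection (x axis, log2, ± SE) of 28 DNA replication and mitosis genes in exposed (squares) and unexposed pups (circles), ordered by the interaction. In exposed pups 10 genes fell and E2f8 rose by the test, the latter on its brightest probe only, and the unexposed values lie between -0.07 and 0.20.

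Promoter windows of the list genes were searched for letters of E2F sites, GGCGGGAA or TTGGCGC, on both strands. The motif stood in 10 of 25 windows (40.0%) of the 23 list genes that had one, against 4.54% of all windows. The list was drawn up by function, so this share describes genes of replication and mitosis whatever their response to injection. It is no result of the interaction. The windows of Mcm3, the list gene called for the interaction, and of Rad51ap1, a called gene outside the list, are shown with matches in capitals.
Mcm3: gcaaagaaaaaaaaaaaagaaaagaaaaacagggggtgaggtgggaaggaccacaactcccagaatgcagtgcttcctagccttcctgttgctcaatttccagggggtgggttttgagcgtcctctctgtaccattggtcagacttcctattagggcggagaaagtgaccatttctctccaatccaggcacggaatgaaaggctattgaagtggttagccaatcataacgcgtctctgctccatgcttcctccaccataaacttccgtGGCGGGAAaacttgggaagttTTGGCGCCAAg
Rad51ap1: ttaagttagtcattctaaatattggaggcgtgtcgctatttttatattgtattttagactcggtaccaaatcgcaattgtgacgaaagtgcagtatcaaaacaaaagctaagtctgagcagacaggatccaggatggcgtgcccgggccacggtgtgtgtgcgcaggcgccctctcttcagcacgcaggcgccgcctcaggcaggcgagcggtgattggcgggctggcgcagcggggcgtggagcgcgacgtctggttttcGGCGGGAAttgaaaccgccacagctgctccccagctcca
They lie at chr1:20820263-20820562 and chr6:126939538-126939837 in GRCm38.p6, both on the minus strand. In Mcm3 the 3 matches, of which a pair overlaps on opposite strands, all lie after the start, and in Rad51ap1 the single match begins 11 bases after it. Whether a factor occupied them was not measured.

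In 2 genes the response was larger in unexposed pups. Gbp8 belongs to the interferon-inducible guanylate-binding proteins. It lay between 0.93 and 1.61 in control pups (median 1.14) and between 1.68 and 2.80 in hyper pups (median 2.28), without overlap, and between 0.95 and 1.69 in hypo and 0.94 and 1.73 in hypo+ pups, which overlapped. It rose by 1.10 in unexposed pups against 0.25 (adjusted p = 0.359) in exposed pups, with an interaction of -0.85 (SE 0.17, adjusted p = 0.0389). A second, dimmer probe gave -0.32 and was not called. Spata2l fell by 0.42 on the log2 scale in unexposed pups, against 0.09 (adjusted p = 0.68) in exposed pups, with an interaction of 0.50 (adjusted p = 0.0461). Without the 4 arrays with acinar transcripts the interactions were -0.77 (adjusted p = 0.105) and 0.38 (adjusted p = 0.15), and neither was called.

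Ppp1r3c, which targets protein phosphatase 1 to glycogen, showed a large response whose difference did not pass. It lay between 1.43 and 2.55 in hypo pups (median 2.13) and between 0.26 and 1.10 in hypo+ pups (median 0.87). It lay between 1.04 and 1.64 in control pups (median 1.27) and between 0.57 and 1.13 in hyper pups (median 0.79). The exposed pair was apart and the unexposed pair overlapped. It fell by 1.23 in exposed and by 0.47 in unexposed pups on the log2 scale, and the interaction of -0.76 (95% interval -1.11 to -0.40) had an adjusted p of 0.0803. Of 18 alternatives, only array weights called it (-0.80, adjusted p = 0.0241), and the scanner log ratio gave the value nearest to 0 (-0.285, adjusted p = 0.893). Within the slides that held all 4 groups it ranged from -1.53 to 0.35, below 0 on 2 of the 4. Its brighter probe gave -0.87 (SE 0.28, adjusted p = 0.244). Of 24 genes of glycogen metabolism on the array none was called for the interaction by limma (4 at an unadjusted p below 0.05), while 5 fell in exposed and 2 in unexposed pups (665 and 82 of 33236 genes over the whole array).

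Of 32 established hormone targets on the array, 13 rose and 0 fell in exposed pups, 8 rose and 0 fell in unexposed pups, and only Dio1 was called for the interaction, with 20 of 32 above 0 (62.5%, against 50% of all genes) and a median of 0.09. Over the whole array 644 of 33236 genes rose in exposed and 253 in unexposed pups. Thrsp, a lipogenic regulator, rose by 1.39 and 1.01, with a difference of 0.38 (95% interval -0.38 to 1.14). Malic enzyme, Me1, rose by 0.80 and 0.37, with a difference of 0.43 (0.19 to 0.67, adjusted p = 0.159). The mitochondrial Gpd2, a glycerophosphate dehydrogenase, rose by 1.13 and 0.52, with a difference of 0.60 (SE 0.16, adjusted p = 0.124). Idh3a of the citric acid cycle rose by 0.65 and 0.63, a difference of 0.02 (SE 0.11). Klf9 had a difference of 0.50 (0.09 to 0.91, adjusted p = 0.39) and passed in neither response on its brightest probe. Its other probe rose by 0.65 in exposed pups (adjusted p = 0.0403) and was -0.19 in unexposed pups. The difference on that probe, 0.84, was not called (adjusted p = 0.204).

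Among the hormone's own machinery, Dio1 alone was called of 32 genes. Dio3, which inactivates T4 and T3, fell by 0.88 in exposed and by 0.81 in unexposed pups, and the difference of -0.06 (95% interval -0.56 to 0.43) was not called. The receptors Thra and Thrb had interactions of 0.19 (-0.01 to 0.39) and -0.003 (-0.13 to 0.13), and Dio2 0.09 (-0.06 to 0.23). A further list of 28 genes, which the study chose on these arrays for like responses in hyper and hypo+ pups, and opposite ones in hypo pups where these differed from controls, holds 4 called genes and 26 interactions above 0. As it was chosen on the same arrays, including the hypo+ pups that enter the interaction, its direction is no independent evidence.

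The 34 arrays lay on 11 slides, 4 of which held all 4 groups. Computed within each of these 4 slides, the interaction of Dio1 lay between 0.60 and 2.09, that of Bmf between 0.49 and 1.55, that of Sned1 between 0.37 and 0.87 and that of Mcm3 between -0.57 and -0.12. The sign matched that over all arrays on every such slide for 19 of the 22 named genes that were called. The exceptions were DXBay18, Ppargc1b and Gbp8, each with 1 slide near 0 on the other side (-0.09, -0.01 and 0.02). These slides are part of the fit and are no separate samples. With the slide as a fixed block only Dio1 (1.28), Dmbt1 (4.79) and Sned1 (0.73) among the named genes were called, while Bmf kept 1.13 (adjusted p = 0.0952) and Mcm3 -0.38 (adjusted p = 0.0889). With the inferred litter as a random block 13 of the 22 were called, including Dio1, Bmf, Sned1, Ppargc1b and Mcm3, and with 1 mean per litter 7 were, including Sned1 (0.66), Ppargc1b (1.00) and Mcm3 (-0.44) but not Dio1 (1.41, adjusted p = 0.0808) or Bmf (1.20, adjusted p = 0.116).

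The interaction was tested for a difference between the sexes in 8 groups of treatment and sex. Limma called 0 of 41174 probes, with 855 at an unadjusted p below 0.05 and a lowest adjusted p of 1. Among the named genes Rhpn2 had 0.51 (SE 0.20) in males and 1.02 (SE 0.21) in females, and Sned1 had 0.71 (SE 0.12) and 0.63 (SE 0.12). With 1 sex alone, 0 probes were called in males (1878 at an unadjusted p below 0.05) and 0 in females (2520).

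**Figure D5:**
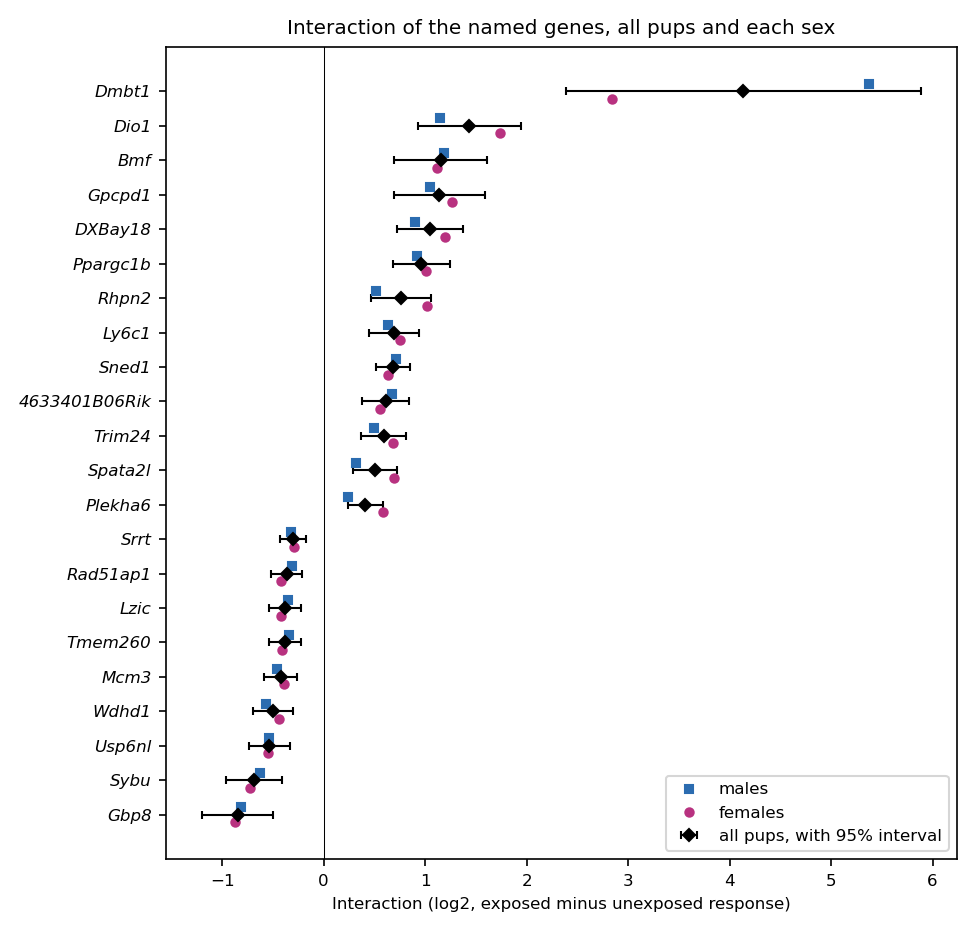
Interaction (x axis, log2) of the 22 named genes that were called, in all pups with 95% intervals (diamonds) and in males (squares) and females (circles) from the fit of 8 groups. The sign is the same in both sexes for every gene shown. The genes were picked in the fit of both sexes together, so that the shared sign is no separate evidence.

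Just inside the threshold lay Ceacam11 (-0.20) and Spata2l (0.50), both with an adjusted p of 0.0461, and the transcript D00812 (-0.45, 0.0479). Just outside lay a second Sned1 probe (0.40, 0.0534), Pclaf (-0.48, 0.0589) and Tsfm (-0.30, 0.0589). Ceacam11 was well above background on 17.6% of the arrays only. Of the 32 called genes 24 have a symbol, and the others are known here by accession alone. They comprised AK089832, AK038152, AK050063, NM_177096 and ENSMUST00000102484, which rose more in exposed pups, and BC066830, AK083552 and D00812, which fell more.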

How the data were processed

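Liver RNA of 34 pups was hybridized to 2-colour Agilent arrays (1 pup each, Cy5, against a universal mouse reference, Cy3, no dye swap). The authors deposited median signal intensities and a log10 ratio per spot, written by Feature Extraction 10.1.1.1. They also deposited their own normalized log2 ratio for each spot, used here as an alternative, as was the log10 ratio. Control spots and 77 to 212 marked spots per array were left out, log2 Cy5/Cy3 of the intensities was normalized by loess within each array, and spots of a probe were averaged. RefSeq gave symbols for 16806 of the 33541 systematic names, and tables of the study gave 88 more.

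A model with 4 groups and sex was fitted to all arrays with limma 3.58.1 (R 4.3.3), with Benjamini-Hochberg adjustment over 41174 probes and a threshold of 0.05. No filter on low values was applied. Groups came from the labels. The first 2 digits of the animal number gave 20 inferred litters, so that pups may share a dam, and p-values without the litter treat them as independent. The fit was tested on simulated data. Genes named were Dio1, Bmf, Ppp1r3c, hormone genes and, among called genes above background on at least 0.5 of the arrays, those with the highest interactions in each direction. Each is given on its probe with the lowest p for the interaction, and the hormone genes other than Dio1 on their brightest probe. The former choice used the tested outcome, so that it favours probes with a clear interaction. Lists are described on each gene's brightest probe. The members and lists were chosen with earlier results of these data known. Alternatives covered background, normalization, probe filters, slide, scan day, litter, sex, array weights and single arrays, and the list medians and the arrays with acinar transcripts were examined after seeing the data. Arrays give no counts, so that the number of arrays limits the precision.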

Additional observations from a re-analysis of the deposited data

Results flagged for a closer look

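For the 30 named genes, 120 groups of 7 to 10 pups were searched for a single pup separated from the others by a wide gap relative to the range of its group, and 6 such values were found, near the 1 in 20 that chance gives. In hypo pups, 4633401B06Rik was 1.00 in pup 311 with the next at 1.40, and Dmbt1 was 1.76 in pup 576 with the next at 0.35. In hypo+ pups, Gbp8 was 0.94 in pup 761 with the next at 1.49, Plekha6 was 2.00 in pup 546 with the next at 2.11, and Rhpn2 was 2.54 in pup 601 with the next at 2.05. In hyper pups, Thrb was 0.58 in pup 864 with the next at 0.36. No difference of the interaction between the sexes was called.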

How the results depend on the processing

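No interaction of a named gene changed sign in a called value under the 18 alternatives or without any single array, but the calls depended on the setting. The 35 probes called (20 rose more, 13 fell more in exposed pups) became 9 (7 and 2) with normexp, 0 (0 and 0) with median centring, 22 (13 and 8) with the scanner log ratio and 3 (3 and 0) with Cy5 alone. They became 11 (7 and 3) with the slide as a fixed block and 69 (33 and 28) with it as a random block, 19 (14 and 5) with the litter as a random block, 12 (5 and 6) with 1 mean per litter, 98 (46 and 46) with array weights and 21 (14 and 6) with 8 groups of treatment and sex. They became 0 (0 and 0) in males only and 0 (0 and 0) in females only, where fewer pups entered the fit. With the authors' log2 values 41 probes were called. The share that rose, 60.6% of those that rose or fell more in exposed pups, was 77.8% with normexp, 100% with Cy5 alone, 73.7% with the litter block, 70% with the fixed slide block and 45.5% with 1 mean per litter. The response in exposed pups (1472 probes) fell to 949 with normexp and 131 with median centring, and that in unexposed pups (392) to 181 and 44, while the fixed slide block gave 632. The causes were not tested.

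Of the 22 named genes called, 21 were called with the authors' values, 13 with the litter block, 7 with 1 mean per litter, 3 with the fixed slide block and 13 without the arrays with acinar transcripts. Leaving out 1 array gave between 10 and 92 probes called (9 to 39 that rose more, 1 to 49 that fell more), 1052 to 1553 for the exposed and 286 to 421 for the unexposed response. The total moved by over 1.5 times without 13 arrays: control 882 (10) and 522 (22), hyper 499 (20), 783 (21), 864 (23) and 498 (73), hypo 891 (16), 311 (20), 316 (21) and 721 (72), and hypo+ 761 (12), 601 (14) and 546 (92). The replication and mitosis list kept 27 of 28 genes below 0 in each alternative run on it, with a median between -0.53 (median centring) and -0.21 (fixed slide block). No animal number occurs in more than 1 group, so that the numbers pair no samples, and the blocks run were slide, scan day and litter.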

Other observations

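Genes of cholesterol synthesis mostly had a lower response in exposed than in unexposed pups, without a call for the interaction. Of 22 genes 18 had an interaction below 0, with a median of -0.15 against 0 over all genes, and 8 (36.4%) had an unadjusted p below 0.05, against 9.22% of all genes. The excess was not particular to this list. The same share was 31.6% in lipogenesis, 28.1% in the hormone targets and 26.3% in the clock genes, but 9.09% in gluconeogenesis and glycolysis. The mean log2 ratio over the list ran from 0.01 through 0.21 to 0.52 in hyper pups and from -0.06 through 0.04 to 0.18 in control pups. It ran from -0.15 through -0.14 to -0.03 in hypo+ pups and from -0.23 through -0.13 to 0.01 in hypo pups, with overlap of control and hyper and of hypo and hypo+, while every hyper pup lay above every hypo+ pup. By the test 4 genes rose and 2 fell in exposed pups, and 4 rose and 0 fell in unexposed pups. The lowest p in the list was that of Nsdhl, a sterol dehydrogenase, at -0.28 (SE 0.06, adjusted p = 0.0706). Msmo1, a sterol oxidase, rose by 0.42 in exposed and by 0.58 in unexposed pups. Fdft1, squalene synthase, fell by 0.47 in exposed pups and was -0.21 (adjusted p = 0.556) in unexposed pups.

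No gene of the other metabolic lists was called for the interaction. In lipogenesis 6 of 19 genes rose in exposed and 5 in unexposed pups, with a median interaction of -0.02, where 644 and 253 of all 33236 genes rose. Targets of CAR and PXR had 18 of 20 interactions above 0 and a median of 0.22, with 1 unadjusted p below 0.05, and 50% of all genes lay above 0. Marker lists were shifted likewise, with 8 of 8 hepatocyte genes (median 0.18), 8 of 8 endothelial genes (0.23) and 6 of 6 bile duct genes (0.16) above 0. The median was 0.08 over 26 genes of fatty acid oxidation, -0.06 over 28 genes of glutathione and NRF2 response, -0.03 over 22 genes of gluconeogenesis and glycolysis, 0.02 over 19 clock genes and 0.14 over 16 glucocorticoid and stress genes. In the BCL2 family, 1 of 21 genes was called, Bmf.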
